A study of Homo sapiens with 12 samples.

Results

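The genes described here are 40 human genes of the ATF4 program, the arm of the integrated stress response that supplies amino acids and charged tRNAs. They were chosen by name: 7 regulators, 4 stress effectors, 3 secreted factors, 8 enzymes of amino acid and one-carbon synthesis, 5 amino acid transporters and 13 cytosolic aminoacyl-tRNA synthetases. Earlier results of these data were known when the genes and lists were chosen. Their shares set beside those of all genes below are therefore descriptions. All 40 were found among the 62754 gene identifiers of the count table, and 39 of them were among the 17115 genes with enough counts to be tested. The exception was FGF21.

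RNA was sequenced from 12 cultures of PC9, a human lung adenocarcinoma line that depends on mutant EGFR, here grown from an earlier subclone of the line. Cells wild type for TDP1 (a DNA repair enzyme that removes trapped topoisomerase I) were left untreated or were given erlotinib, an EGFR kinase inhibitor, at 1 µM. Those taken after 7 days are the drug-tolerant cells, here DTC, and those taken after 28 days are the drug-tolerant expanded cells, here DTEC. A TDP1 knockout line, KO2, was sampled without drug as a further group. Each of the 4 groups had 3 cultures that had been split from a common flask and then grown apart, so the p-values below measure the spread between such cultures, and the knockout is represented by 1 line. DTC, DTEC and KO2 were each compared with the same 3 untreated wild-type cultures, and these comparisons are therefore not independent of each other.

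ATF4 is a transcription factor whose mRNA is translated better when the initiation factor eIF2 is phosphorylated, so its activity is set mainly at the level of its protein. Kinases that sense amino acid shortage (GCN2), misfolded protein in the endoplasmic reticulum (PERK), haem shortage or double-stranded RNA feed into this step. ATF4, often paired with a C/EBP protein, then binds C/EBP-ATF response elements and activates genes for amino acid uptake and synthesis, tRNA charging, and the pro-apoptotic factor CHOP, encoded by DDIT3. Aminoacyl-tRNA synthetases attach each amino acid to its tRNA. Their cytosolic forms include many known ATF4 targets, whereas most of the mitochondrial forms are encoded by separate genes.

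Library depth ranged from 25572691 to 38373679 counts, and levels are given in CPM, the count of a gene relative to the library total, after scaling by the trimmed mean of M-values (TMM). TDP1 checked the knockout label: it ranged from 25.1 to 28.1 CPM in untreated wild-type cells and from 10.1 to 11.3 CPM in KO2, a log2 difference of -1.29 (edgeR adjusted p = 1.3e-05), with RNA still present. TDP1 was also lower in DTC, at 12.7 to 15.7 CPM, and stood at 25.4 to 28.4 CPM in DTEC. The summed level of 5 epithelial markers lay between 8862 and 9330 CPM in untreated cells, 4465 and 5022 in DTC, 7480 and 9812 in DTEC, and 9542 and 10260 in KO2. The 4 leukocyte markers summed to at most 1.11 CPM in any library. The 3 endothelial markers summed to 58.5 to 61.4 CPM in untreated cells, and to 41.9 to 49.5 (DTC), 122 to 142 (DTEC) and 75.7 to 77.2 (KO2) in the other groups. Of these, PECAM1 was lower in DTC and higher in DTEC and KO2 (log2 -1.87, 1.52 and 0.59), VWF was higher in both erlotinib groups (3.64 and 1.71) with group means of 1.57 CPM or less, and CDH5 was not called. Of 4 fibroblast markers, COL1A1 made up nearly the whole sum (7.99 to 8.91 CPM in untreated cells, with DTC at 54.9 to 57.6, DTEC at 11.1 to 14.1 and KO2 at 13.4 to 15) and was higher in all 3 groups than in untreated cells, with DCN, LUM and PDGFRB at means of 0.43 CPM or less. The part of these markers in the results below was not tested. DTC replicate 1 stood apart from the other 2 DTC cultures, with a chi-square per gene of 122 and 75.1 against them, compared with 18.1 between those 2. To a smaller extent untreated replicate 1 (24 and 16.8, against 5.07 between the other 2) and DTEC replicate 3 (48.6 and 20.8, against 11.8) also differed most from their groups. Calls lost without 1 of these libraries are given beside the genes they concern.

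The C/EBP-ATF element is the one sequence feature that ties many of these genes to ATF4, so it was looked for at their promoters. The 8-base core TGATGNAA was searched on both strands in RefSeq promoter sequences (GRCh38.p14, 250 bases before to 50 bases after the start of the gene). No other motif was searched. Of all 27305 promoters, 1003 (3.67%) held it. Among the genes studied here 33 had a promoter sequence and 11 of these (33.3%) held it. The synthetases had the most, 6 of 10 (60%): AARS1, CARS1, IARS1, MARS1, NARS1 and TARS1. None of 6 other cytosolic synthetases and 1 of 14 mitochondrial synthetases had it. In further lists described below, it was in 2 of 6 other ATF4-linked genes and 1 of 4 interferon-gamma response genes. It was also in 1 of 6 genes of eIF2 kinases and phosphatase and 1 of 10 of the ATF6 and XBP1 branch. The 5 eIF2B, 3 scaffold and 5 p53 target promoters held 0. These shares were not tested against each other, and genes listed for a link to ATF4 are not a choice independent of this element. Among the genes studied here the remaining matches were in CHAC1, FGF21, ASNS, SLC3A2 and SLC7A1, and none was in the 6 regulators searched. Capitals mark the match in the 30-base windows below, each written 5′ to 3′ on the strand of its gene. The genes shown differed in their course under erlotinib, and the likeness of their marked letters follows from the search itself.
CHAC1 (chr15:40953251-40953280, + strand): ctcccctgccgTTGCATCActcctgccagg
ASNS (chr7:97872458-97872487, - strand): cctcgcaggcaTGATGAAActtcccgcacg
AARS1 (chr16:70289675-70289704, - strand): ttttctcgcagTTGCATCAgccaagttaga
CARS1 (chr11:3057407-3057436, - strand): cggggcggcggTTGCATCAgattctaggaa
IARS1 (chr9:92293692-92293721, - strand): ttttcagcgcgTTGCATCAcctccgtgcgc
MARS1 (chr12:57488053-57488082, + strand): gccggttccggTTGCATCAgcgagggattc
TARS1 (chr5:33440956-33440985, + strand): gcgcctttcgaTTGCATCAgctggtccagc
NARS1 (chr18:57621804-57621833, - strand): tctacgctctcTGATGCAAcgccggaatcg

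In 6 of these 8 windows the match is TTGCATCA, whereas NARS1 has its reverse complement TGATGCAA and ASNS has TGATGAAA. Relative to the RefSeq start, the first base of the match lies at -209 in CHAC1, -187 in AARS1, -68 in ASNS and -13 in IARS1. In CARS1 (-2) and MARS1 (-4) the match crosses the start, and in TARS1 (2) and NARS1 (14) it lies after the start. A match describes letters in this window and is not a measured binding site.

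After 7 days of erlotinib the roles differed in direction: 3 of the 4 stress effectors were higher, and the biosynthetic enzymes, transporters and synthetases were mostly lower under TMM scaling. Of the 7 regulators 2 were higher (28.6%) and 3 lower (42.9%), near the shares of all genes that follow. Of the 39 genes tested, 9 rose and 20 fell in DTC (edgeR quasi-likelihood test, Benjamini-Hochberg adjusted p under 0.05), and 10 were not called. Among all genes tested, 34.0% rose and 33.3% fell, 67.3% in all. The median log2 fold change was -0.34 over the 39 genes and 0.06 over all genes. At a change of at least 2-fold, 5 genes rose and 3 fell, against 22.3% and 13.9% of all genes. Because counts are relative to the library, the direction of small changes in DTC depends on the scaling: with total counts alone 15 rose and 7 fell, and with upper-quartile scaling 14 rose and 9 fell. These scalings shifted the all-gene median by 0.355 and 0.288 (log2), and the median of the 39 genes minus that of all genes was -0.395 and -0.392, compared with -0.396 under TMM.

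After 28 days most of the program stood above the untreated level. In DTEC 27 of 39 genes rose and 4 fell (31 called), where 26.0% of all genes rose and 26.3% fell (52.3% called). The median log2 fold change was 0.58, against 0.02 over all genes. Under each of the 3 other scalings 27 genes again rose, and 3 or 4 fell. At 2-fold or more, 13 rose and 2 fell (13.2% and 6.70% of all genes). A direct comparison of DTEC with DTC called 28 genes higher and 2 lower, where 28.8% of all genes were higher and 26.6% lower, 55.4% in all. Changes of 2-fold or more were seen in 15 genes, all of them upward, where 8.10% of all genes rose and 14.3% fell that far. The 2 genes lower in DTEC were ATF5 and DDIT3. NUPR1, at -0.62 in the same comparison (edgeR adjusted p = 0.0518), was not called here but was called lower in 8 of 13 alternatives. The median of that comparison was 0.81, against -0.01 over all genes. In bulk RNA a change in every cell and a change in the share of cells that carry the RNA cannot be told apart.

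**Figure D1:**
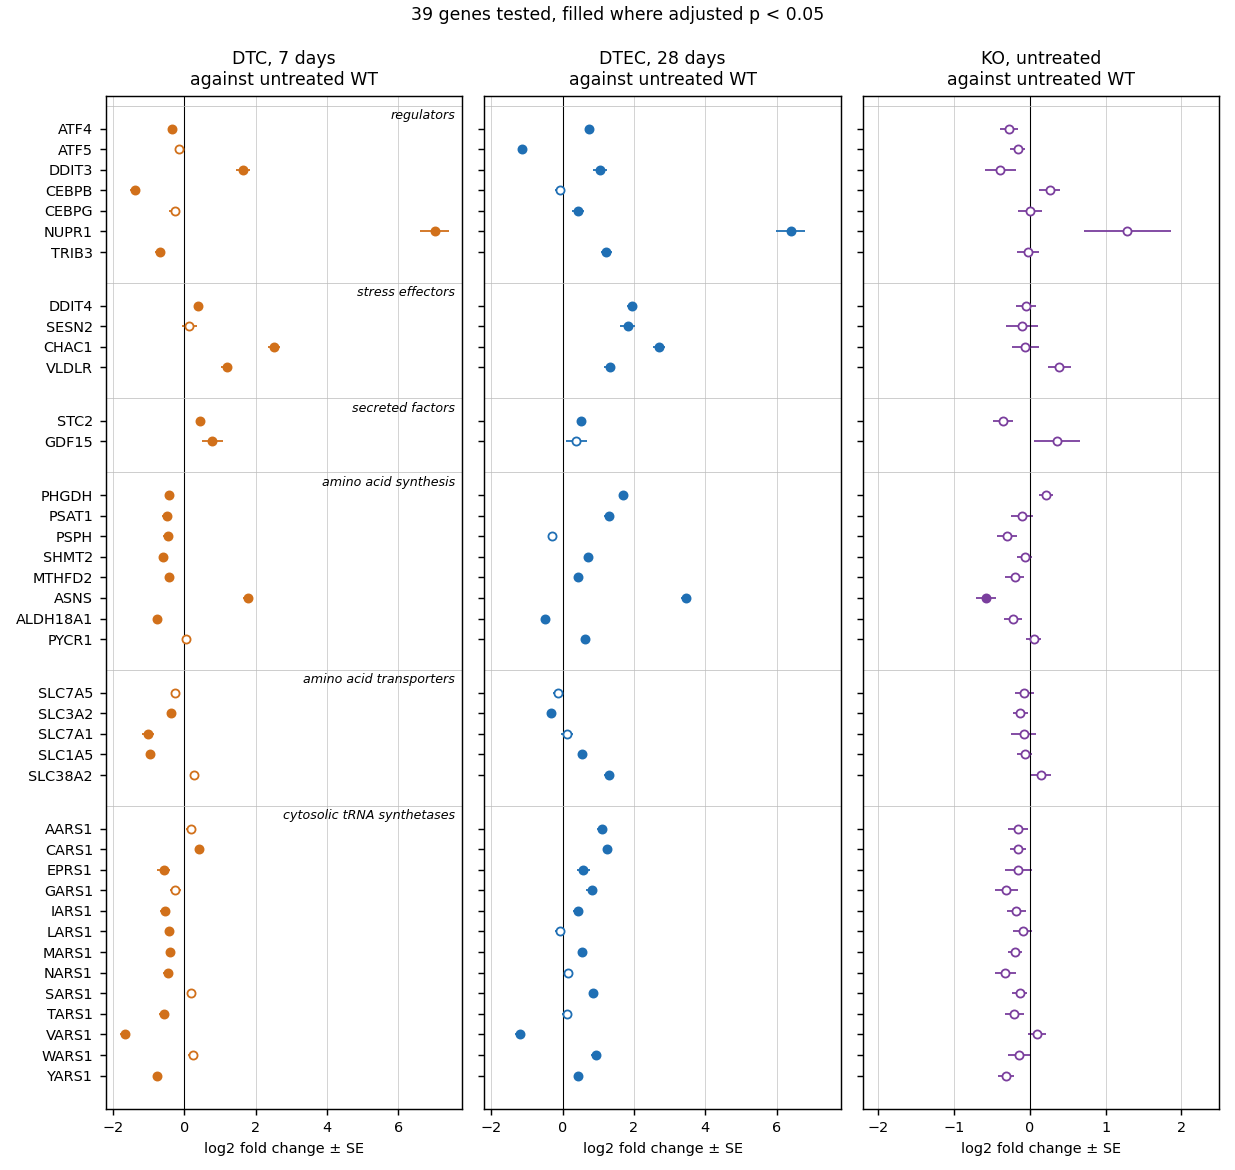
Log2 fold change of each of the 39 tested genes, grouped by role, in DTC, DTEC and KO2 against untreated wild-type cells (the KO2 panel has a shorter axis). Filled points passed an adjusted p of 0.05, bars are standard errors, and under TMM scaling most points lie left of 0 for synthesis, transporters and synthetases in DTC and right of 0 in DTEC, and 1 point (ASNS) is called in KO2.

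The calls at 7 and 28 days can be set side by side. The 2 times are separate cultures, and no day is listed for the untreated cultures. Effects of erlotinib and of time in culture therefore cannot be told apart. A set of 11 genes was lower than untreated in DTC and higher in DTEC: ATF4, TRIB3, PHGDH, PSAT1, SHMT2, MTHFD2, SLC1A5, EPRS1, IARS1, MARS1 and YARS1. These 11 were 28.2% of the genes tested here, whereas 419 of all genes (2.45%) had the same order of calls. With total counts alone the order held for 3 of the 11 (SHMT2, SLC1A5 and YARS1), and with upper-quartile scaling for 4. The others lost the call or, for ATF4 with total counts, the direction in DTC. A further 8 genes were higher at both times, DDIT3, NUPR1, DDIT4, CHAC1, VLDLR, STC2, ASNS and CARS1, which is 20.5% of the genes here and 18% of all genes. Of the rest, 8 were called higher at 28 days and not at 7, among them SESN2, SLC38A2 and AARS1 (20.5% of the genes here and 5.56% of all genes), and 3 were lower at both times, ALDH18A1, SLC3A2 and VARS1 (7.69% and 19.2%).

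ATF4 mRNA itself moved little at 7 days and rose at 28 days. It measured 566, 513 and 507 CPM in the untreated wild-type cultures. The DTC cultures had 346, 472 and 434 CPM, and the DTEC cultures 916, 817 and 903 CPM, while KO2 had 416, 445 and 451. All 3 DTEC cultures lay above every other library, and the DTC range lay just below the untreated one. The rise in DTEC was 1.66-fold (log2 0.73 ± 0.115 SE, edgeR adjusted p = 0.000103). The DTC difference was -0.34 on the log2 scale (edgeR adjusted p = 0.0163, from 0.00977 to 0.911 over the alternatives). That call was lost with upper-quartile scaling, with the 2 groups fitted alone, and without untreated replicate 1 or DTC replicate 1, and with total counts the difference became 0.02.

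Among its partners and targets in the regulator group, NUPR1, a small stress-induced chromatin protein, had the largest change of the 40 genes. Untreated cells gave 0.299, 0.27 and 0.0577 CPM, which is 2 to 10 counts per library. In DTC it reached 19.6, 29 and 32.7 CPM and in DTEC 22.7, 16.8 and 13.3 CPM. Every erlotinib library was thus far above every untreated one, by a log2 difference of 7.02 in DTC and 6.40 in DTEC (edgeR adjusted p = 5.85e-09 and 5.89e-08). The size of these folds rests on the few untreated counts, and NUPR1 was one of 4 listed genes whose estimated counts were fractional in all 12 libraries.

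DDIT3, which encodes CHOP, was higher at both times and higher at 7 than at 28 days. Its levels were 8.87, 6.68 and 8.45 CPM in untreated cells, 18.4, 30.9 and 25.9 in DTC, and 20.2, 15.8 and 13.2 in DTEC. Both erlotinib groups lay above the untreated range, and the DTC and DTEC ranges overlapped. DDIT3 was 3.13-fold higher in DTC (edgeR adjusted p = 4.74e-06) and 2.05-fold in DTEC (0.000581), and the DTEC minus DTC difference was -0.61 ± 0.191 SE on the log2 scale (adjusted p = 0.0141). DDIT3 overlaps MARS1 on the opposite strand, and whether the counting used strand is not given in the sources used here.

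TRIB3, a pseudokinase that restrains ATF4 and CHOP activity, was lower in DTC and higher in DTEC than in untreated cells. It measured 81.5, 97.6 and 89.6 CPM in untreated cells, 52.7, 50.5 and 64.6 in DTC, and 260, 201 and 167 in DTEC. None of the 3 ranges overlapped. The log2 change was -0.68 in DTC (edgeR adjusted p = 0.00088, lost with total counts alone) and 1.22 in DTEC (9.7e-06), and DTEC exceeded DTC 3.74-fold (1.61e-07). CEBPB, a C/EBP protein that can pair with ATF4, was low in DTC alone: 74, 94.1 and 79.5 CPM in untreated cells, 24.5, 36.4 and 33.8 in DTC, and 78.1, 78.3 and 77.7 in DTEC. The DTC cultures stood below all others, at 38.2% of the untreated level (edgeR adjusted p = 8.52e-07), and the DTEC cultures lay within the untreated range, with DTEC above DTC by 1.305 on the log2 scale (3.45e-06).

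ATF5, a paralogue of ATF4 that the same stress pathway controls, went the other way at 28 days. It ranged from 81.3 to 86.4 CPM in untreated cells, from 71.6 to 79.9 in DTC and from 34.1 to 42.8 in DTEC. The DTEC level was 45.3% of untreated (log2 -1.14, edgeR adjusted p = 4.69e-07) and 50.1% of DTC. CEBPG, another C/EBP partner, was higher in DTEC by 0.42 (edgeR adjusted p = 0.0423), but its DTEC cultures (53.3 to 95.1 CPM) overlapped the untreated ones (53.1 to 58.5 CPM) and the call was lost in 6 alternatives, the 2 groups fitted alone and the fits without any 1 untreated library, DTEC replicate 1 or DTEC replicate 2. In the regulator group as a whole, 2 genes rose and 3 fell in DTC, and 5 rose and 1 fell in DTEC.

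The 4 stress effectors were all higher at 28 days, and 3 of them already at 7 days. CHAC1, which degrades glutathione, measured 2.27, 1.85 and 2.25 CPM in untreated cells, 10.4, 13 and 13.5 in DTC, and 15.7, 13.3 and 12.7 in DTEC. The erlotinib cultures lay above all untreated ones and overlapped each other. The increase was 5.76-fold in DTC and 6.52-fold in DTEC (edgeR adjusted p = 8.88e-09 and 2.31e-08), and the DTEC to DTC difference of 0.18 ± 0.146 SE was not called (0.319). Its promoter carries the element shown above at -209.

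VLDLR, a lipoprotein receptor induced in this response, followed the same course. Untreated cells had 13.5, 13.8 and 12.7 CPM, DTC 34.8, 25.8 and 30.8, and DTEC 42.2, 30.4 and 27.3. It was 2.29-fold higher in DTC and 2.51-fold in DTEC (edgeR adjusted p = 8.21e-06 and 7.17e-06). Both inhibitors of the growth kinase mTORC1 in this group rose mainly later. DDIT4 (REDD1) had 40.4, 48.3 and 43.7 CPM in untreated cells, 45.3, 63 and 65.5 in DTC, and 184, 156 and 166 in DTEC. Its DTEC cultures stood far above the rest, while the lowest DTC culture lay within the untreated range, and the log2 change was 0.39 in DTC (edgeR adjusted p = 0.017) and 1.94 in DTEC (7.78e-08). SESN2, a leucine-binding sestrin, had 11.4, 13.2 and 13.6 CPM in untreated cells, 14.6, 13.7 and 14 in DTC, and 59, 48 and 28.6 in DTEC. Its DTEC cultures were spread widely but did not overlap any other group, 3.55-fold above untreated (edgeR adjusted p = 8.96e-06), and the DTC difference of 0.15 was not called (0.551). DTEC exceeded DTC by 1.54 for DDIT4 and by 1.68 for SESN2 on the log2 scale (edgeR adjusted p = 4.37e-07 and 1.62e-05).

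Of the secreted factors, STC2, a stanniocalcin released under stress, was modestly higher at both times. It had 230, 251 and 244 CPM in untreated cells, 409, 282 and 301 in DTC, and 383, 348 and 308 in DTEC. Neither erlotinib group overlapped the untreated one, with log2 changes of 0.45 and 0.52 (edgeR adjusted p = 0.00653 and 0.00391). GDF15, a stress hormone that lowers appetite, varied among cultures of 1 group: 14.7, 29.3 and 23.9 CPM in untreated cells, 20.5, 44.7 and 52.1 in DTC, and 31.4, 27.6 and 29.6 in DTEC. Its groups overlapped, and the call in DTC (log2 0.79, edgeR adjusted p = 0.033) was lost in 5 alternatives, which were the 2 groups fitted alone and the fits without untreated replicate 1, untreated replicate 3, DTC replicate 2 or DTC replicate 3. FGF21, a metabolic hormone and ATF4 target, was too low to test, with 0 to 3 counts per library in untreated cells, 7 to 10 in DTC, 7 to 30 in DTEC and 0 in each KO2 library. A count of 0 allows up to 3 counts, or 0.0782 to 0.117 CPM at these depths, for counting error only.

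**Figure D2:**
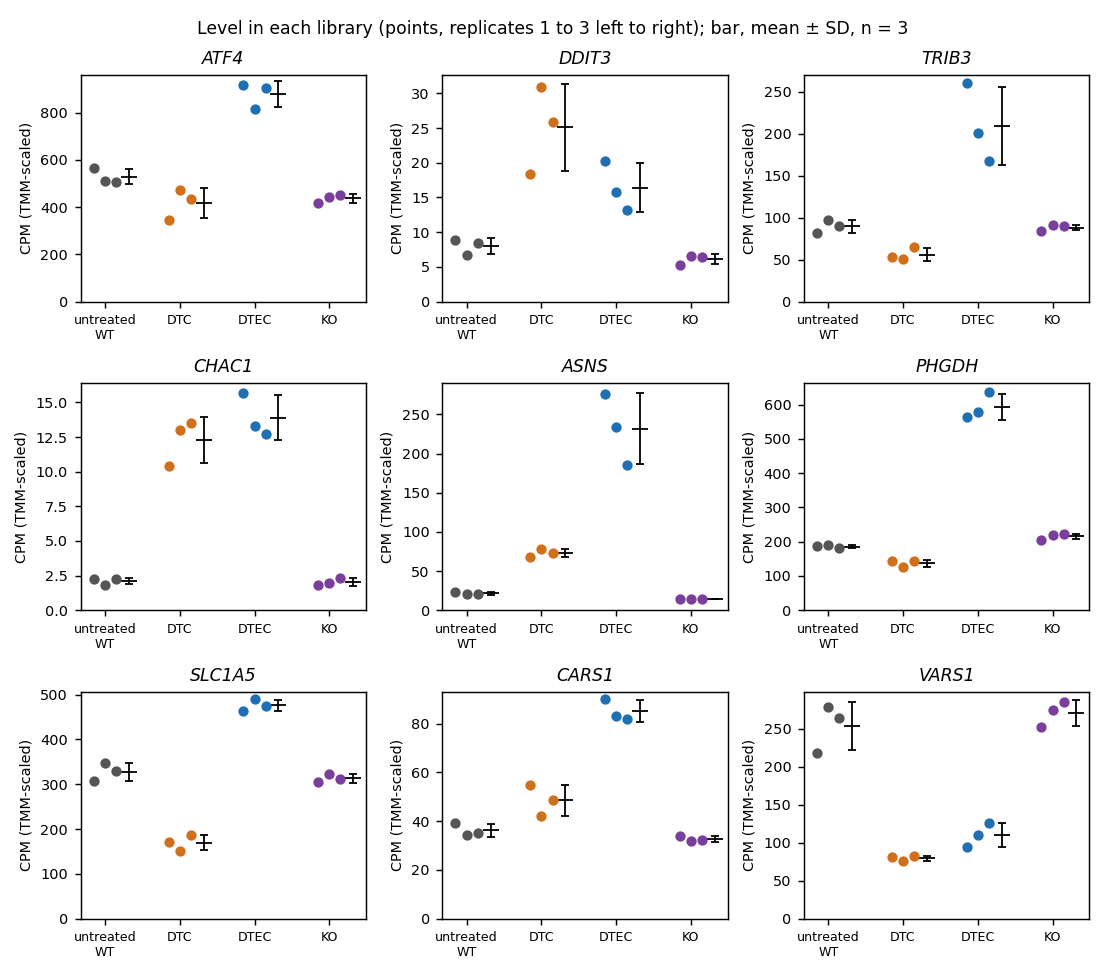
Level of 9 genes in each of the 12 libraries (CPM, linear axes from 0 with a scale of their own per gene), 1 point per culture and a bar for the mean ± SD of the 3 cultures of a group. ATF4, TRIB3, ASNS, PHGDH, SLC1A5 and CARS1 are highest in the DTEC cultures, CHAC1 and DDIT3 are above untreated in both erlotinib groups, and VARS1 is below untreated in both.

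Asparagine synthetase had the largest change among the enzymes. ASNS, which makes asparagine from aspartate and glutamine, measured 22.8, 20.2 and 20.9 CPM in untreated cells, 67.6, 78.5 and 72.5 in DTC, and 276, 234 and 186 in DTEC. The 3 groups formed separate steps with no overlap. ASNS was 3.42-fold above untreated in DTC (edgeR adjusted p = 2.94e-08) and 10.9-fold in DTEC (log2 3.45 ± 0.138 SE, 6.56e-10), and DTEC exceeded DTC by 1.67 (1.19e-07). Its estimated counts were fractional in all 12 libraries, and an overlapping transcript on the same strand, ENSG00000284707, ran at 1.22 to 1.42 CPM in untreated cells, 2.7 to 4.21 in DTC and 7.78 to 12.2 in DTEC, and how reads were divided between them is not given in the sources used here. Its promoter window above holds TGATGAAA at -68.

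Under TMM scaling the serine pathway was lower at 7 days, and its first 2 enzymes were well above untreated at 28 days. PHGDH, the first enzyme of serine synthesis from glycolysis, had 187, 189 and 180 CPM in untreated cells, 143, 125 and 142 in DTC, and 563, 579 and 637 in DTEC. The ranges were fully separate. PHGDH was at 73.8% of untreated in DTC (log2 -0.44, edgeR adjusted p = 0.00069) and 3.2-fold higher in DTEC (1.03e-08), and the step from DTC to DTEC was 4.33-fold (log2 2.12 ± 0.0951 SE, 7.14e-10). PSAT1, the aminotransferase that follows it, had 180, 166 and 174 CPM in untreated cells, 121, 114 and 139 in DTC, and 529, 428 and 321 in DTEC, again without overlap. PSAT1 was at 71.9% of untreated in DTC (edgeR adjusted p = 0.00916) and 2.46-fold above it in DTEC (5.3e-06). PSPH, the last enzyme of the branch, was not called higher at either time: its log2 change in DTC was -0.46 (edgeR adjusted p = 0.00557), and its DTEC difference of -0.30 was not called (0.0653).

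The mitochondrial one-carbon enzymes SHMT2 and MTHFD2, which draw on serine, moved in the same order. SHMT2 changed by -0.58 in DTC and 0.69 in DTEC (edgeR adjusted p = 0.000106 and 3.89e-05), and MTHFD2 by -0.42 and 0.44 (0.00756 and 0.00798). Under total counts and under upper-quartile scaling the DTC calls of PHGDH, PSAT1, PSPH and MTHFD2 were lost, whereas that of SHMT2 was kept. The PSAT1 call in DTC was also lost without DTC replicate 2, and that of MTHFD2 without untreated replicate 1. The proline enzymes differed from each other. ALDH18A1, which starts proline synthesis from glutamate, had 128, 114 and 117 CPM in untreated cells, 83.4, 62.3 and 66.3 in DTC, and 93.5, 78.8 and 84.2 in DTEC, so that both erlotinib groups lay below untreated. It was at 59% of untreated in DTC and 71.3% in DTEC (edgeR adjusted p = 3.58e-05 and 0.00235). PYCR1, which finishes the same route, was higher in DTEC by 0.63 (edgeR adjusted p = 0.000134), with a DTC difference of 0.06 that was not called (0.61).

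The transporters did not move as one group. SLC1A5, which imports glutamine and other neutral amino acids, had 308, 347 and 329 CPM in untreated cells, 172, 152 and 186 in DTC, and 463, 490 and 475 in DTEC. Its groups were fully separate, at 51.8% of untreated in DTC (edgeR adjusted p = 7.79e-07) and 1.45-fold above it in DTEC (0.000314), and it kept both calls in every alternative run. SLC7A1, a carrier of arginine and lysine, had 199, 222 and 212 CPM in untreated cells, 142, 80.3 and 92.6 in DTC, and 248, 244 and 194 in DTEC. It was lower in DTC, at 49.8% of untreated (edgeR adjusted p = 0.000114), and its DTEC cultures straddled the untreated range, with a difference of 0.12 that was not called (0.583). SLC38A2, a sodium-coupled neutral amino acid carrier, had 298, 274 and 307 CPM in untreated cells, 417, 323 and 330 in DTC, and 819, 743 and 582 in DTEC. All DTEC cultures exceeded all others, 2.44-fold above untreated (edgeR adjusted p = 2.47e-06). The DTC difference of 0.28 (0.0696) became a call in 7 alternatives.

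Neither of the 2 chains of the large neutral amino acid exchanger was called higher. SLC7A5, its transport chain, ranged from 442 to 595 CPM in untreated cells, from 400 to 491 in DTC and from 432 to 523 in DTEC, and no comparison called it. SLC3A2, its partner chain, was lower at both times, with log2 changes of -0.36 in DTC and -0.34 in DTEC (edgeR adjusted p = 0.00477 and 0.0102). Both SLC3A2 calls were lost with total counts and with upper-quartile scaling, the DTC call also without DTC replicate 2, and the DTEC call also without untreated replicate 2, untreated replicate 3 or DTEC replicate 2. The 39 tested genes included 1 that no comparison called, which was SLC7A5.

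Under TMM scaling most of the 13 cytosolic synthetases were lower at 7 days, and most were higher at 28 days under each scaling tried. In DTC 1 rose (CARS1), 8 fell and 4 were not called, with a median log2 fold change of -0.42. With total counts alone 4 rose and 2 fell, and with upper-quartile scaling 4 rose and 3 fell. In DTEC 9 rose, 1 fell (VARS1) and 3 were not called, with a median of 0.54, and these counts were the same under total counts and upper-quartile scaling. All 13 were higher in DTEC than in DTC, with a median of 0.81 and a range of 0.33 to 1.19, although 11 passed with total counts alone and 12 with upper-quartile scaling. The smallest of these differences, LARS1 at 0.33 (edgeR adjusted p = 0.0346), was lost in 9 alternatives, among them those without DTC replicate 2, DTC replicate 3, DTEC replicate 2 or DTEC replicate 3. The DTC calls of LARS1 and NARS1 were lost without untreated replicate 1, DTC replicate 2 or DTC replicate 3.

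Their summed share of all counts shows the size of the change. The 13 genes took 0.297, 0.279 and 0.283% of counts in untreated cells, 0.32, 0.233 and 0.269% in DTC, 0.483, 0.433 and 0.384% in DTEC, and 0.266, 0.263 and 0.267% in KO2. DTEC lay above every other library, and the DTC cultures straddled the untreated ones. The means were 0.286 ± 0.00945% (SD, n = 3) in untreated cells, 0.274 ± 0.0437% in DTC, 0.433 ± 0.0495% in DTEC and 0.265 ± 0.00208% in KO2. On the TMM scale the DTC mean was 0.238% against 0.317% in untreated cells.

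**Figure D3:**
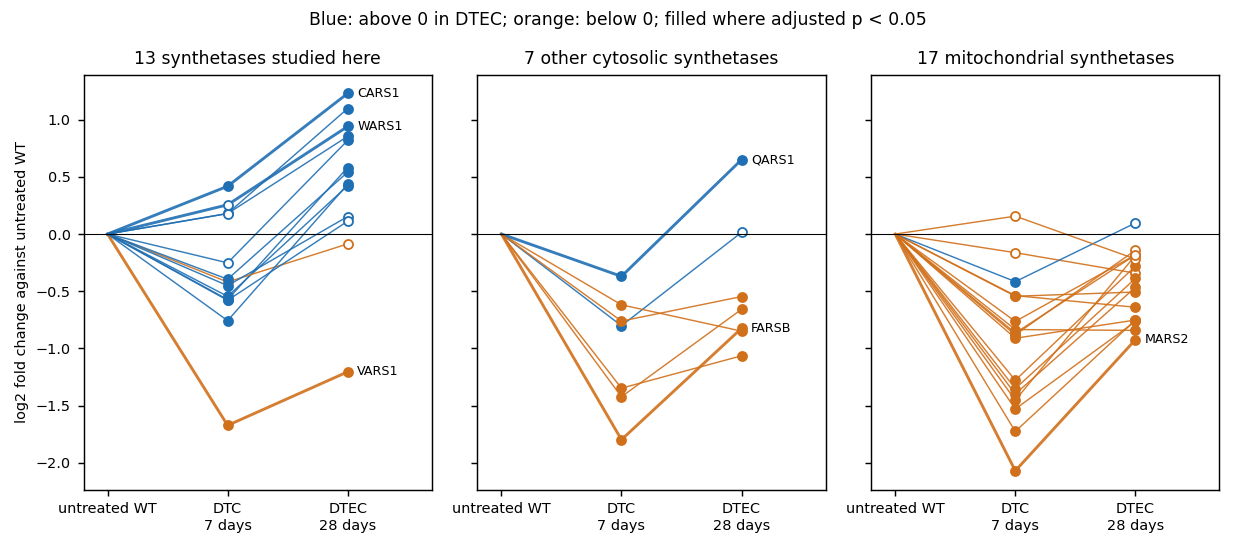
Log2 fold change against untreated wild-type cells of the 13 cytosolic synthetases studied here, 7 other cytosolic synthetases and 17 mitochondrial synthetases, in DTC and DTEC, 1 line per gene from 0 in untreated cells, with filled points where the adjusted p was under 0.05. The medians are -0.42, -0.80 and -0.88 in DTC, and 0.54, -0.66 and -0.39 in DTEC.

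Among single synthetases, YARS1 (tyrosine) was lower at 7 days and higher at 28 days. It had 246, 224 and 226 CPM in untreated cells, 152, 124 and 136 in DTC, and 351, 307 and 283 in DTEC, with no overlap. YARS1 was at 59.2% of untreated in DTC and 1.35-fold in DTEC (edgeR adjusted p = 1.71e-05 and 0.00288), a step of 2.28-fold between the 2 times (4.87e-07). EPRS1, which charges both glutamate and proline tRNAs, had 320, 285 and 305 CPM in untreated cells, 274, 146 and 192 in DTC, and 521, 457 and 384 in DTEC. Its groups did not overlap, but the DTC cultures were spread widely and the DTC call (log2 -0.57, edgeR adjusted p = 0.0107) was lost in 5 alternatives, among them those without untreated replicate 1, DTC replicate 2 or DTC replicate 3. Its DTEC call (0.58, 0.0133) was lost without untreated replicate 2 or DTEC replicate 1.

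CARS1 (cysteine) was the one synthetase of the 13 called higher at both times. It had 39.3, 34.5 and 35 CPM in untreated cells, 54.7, 42.2 and 48.6 in DTC, and 90.2, 83.1 and 81.9 in DTEC. The 3 ranges rose in separate steps, by 0.42 in DTC (edgeR adjusted p = 0.00291) and 1.23 in DTEC (4.82e-07). VARS1 (valine) was the exception in the other direction. It had 218, 278 and 264 CPM in untreated cells, 81, 75.4 and 82 in DTC, and 93.8, 110 and 126 in DTEC. All 6 erlotinib cultures lay far below the untreated ones, at 31.4% in DTC and 43.4% in DTEC (edgeR adjusted p = 3.14e-08 and 2.06e-06), and DTEC was 0.47 above DTC (0.00459, lost with total counts and without DTEC replicate 3).

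WARS1 (tryptophan) is also a known interferon-gamma target. It had 81.3, 78.5 and 76.9 CPM in untreated cells, 112, 77 and 93.3 in DTC, and 181, 152 and 122 in DTEC. DTEC lay above both other groups (log2 0.94, edgeR adjusted p = 9.81e-05), and DTC overlapped the untreated range (0.26, 0.133). The 5 interferon-gamma response genes measured beside it had another order: 4 of 5 were higher in DTC and all 5 were lower in DTEC than in DTC. GBP1, an interferon-induced GTPase, was higher by 5.57 in DTC and by 2.61 in DTEC (edgeR adjusted p = 4.11e-08 and 3.9e-05).

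The remaining synthetases can be given by their fold changes. In DTEC AARS1 (alanine) was higher by 1.10, SARS1 (serine) by 0.85, GARS1 (glycine) by 0.82, MARS1 (methionine) by 0.54 and IARS1 (isoleucine) by 0.42, the last lost without DTEC replicate 1 (edgeR adjusted p = 0.06). TARS1 (threonine, 0.11), NARS1 (asparagine, 0.15) and LARS1 (leucine) were not called there. Of the 6 genes with the promoter element, AARS1, CARS1, IARS1 and MARS1 were higher in DTEC while TARS1 and NARS1 were not called, and EPRS1, GARS1, SARS1 and WARS1 were higher without it in the window searched. Per kilobase of exon sequence, the untreated level was highest for TARS1 (88 CPM per kb), NARS1 (77) and GARS1 (69.1) and lowest for WARS1 (12.4) and CARS1 (3.62). The exon length joins all annotated exons of a gene, not those of a single transcript, so this ranking depends partly on the annotation. In DTEC GARS1 reached 122 CPM per kb.

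Synthetases outside the list were mostly lower than untreated at both times, and whether they differed from the 13 was not tested. The 7 other cytosolic synthetases all fell in DTC (median -0.80), and in DTEC 5 fell and 1 rose, QARS1 (glutamine) by 0.65 (edgeR adjusted p = 6.78e-05). FARSB, a subunit of the phenylalanine enzyme, fell most in DTC (-1.80, edgeR adjusted p = 1.4e-09), and FARSA, the other subunit, fell most in DTEC (-1.06, 2.47e-06). Of 17 mitochondrial synthetases 15 fell in DTC and 10 in DTEC, and 0 rose in either by edgeR, at an unadjusted p under 0.05 or by DESeq2. With total counts alone, and likewise with upper-quartile scaling, 1 of them rose and 12 fell in DTC, and 0 rose and 9 fell in DTEC. MARS2, the mitochondrial methionine enzyme, fell by 2.07 in DTC and by 0.92 in DTEC on the log2 scale (edgeR adjusted p = 2.98e-09 and 1.15e-05). Between DTC and DTEC 11 of the 17 rose and 1 fell, with a median of 0.68. Of the 7 other cytosolic synthetases 5 were higher in DTEC than in DTC and 0 lower, with a median of 0.76. With total counts alone 4 of these 7 were higher and 1 lower. The rise from DTC to DTEC was thus also seen in synthetases outside the 13. Of 3 scaffold genes of the multi-synthetase complex, 2 fell at each time, AIMP2 by 1.19 and 1.11.

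The upstream machinery showed changes of RNA level in both directions. All 5 subunits of eIF2B, the exchange factor that phosphorylated eIF2 blocks, fell in DTC (median -1.32) and 4 fell in DTEC (median -0.79). Of these EIF2B3 fell most at both times, with -1.59 and -1.15 (edgeR adjusted p = 4.83e-09 and 2.9e-07). EIF2S1, the eIF2 subunit that is phosphorylated, fell by 0.93 and 0.96. Of the kinases, EIF2AK4 (GCN2) changed by -1.07 in DTC, and EIF2AK3 (PERK) by 0.91 in DTC and 0.74 in DTEC. PPP1R15A (GADD34), the phosphatase subunit that ATF4 and CHOP induce, was higher by 0.92 in DTC (edgeR adjusted p = 8.24e-06). Phosphorylation and ATF4 protein were not measured.

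Other genes linked to ATF4 were counted in the same way. Of 9 tested, 3 rose and 6 fell in DTC, 5 rose and 0 fell in DTEC (0 also at an unadjusted p under 0.05 and by DESeq2), and 8 were higher and 1 lower in DTEC than in DTC. The gene that went lower was ATF3, a stress-induced transcription factor, with 4.59 in DTC and 2.06 in DTEC (edgeR adjusted p = 2.3e-09 and 9.92e-06). CTH, which makes cysteine from cystathionine, was higher by 2.03 and 3.32, and PCK2, mitochondrial PEP carboxykinase, by 1.23 and 2.44. The ATF6 and XBP1 branch of the unfolded protein response did not move as one: 2 of 10 genes rose and 6 fell in DTC, and 4 rose and 1 fell in DTEC. In DTC 4 rose and 3 fell with total counts alone, and 4 rose and 4 fell with upper-quartile scaling. In DTEC 6 rose and 1 fell with either. The largest changes in DTC were those of DNAJB9 (2.28) and EDEM1 (-1.11), and DNAJB9 was lower in DTEC than in DTC (-1.64). XBP1 was higher in DTEC, by 1.16. HERPUD1, an endoplasmic reticulum membrane protein of the degradation pathway, was higher by 1.93 in DTC and 1.64 in DTEC, and the chaperone HSPA5 (BiP) was lower in DTC, with -0.76. Of 6 p53 targets, 4 rose and 1 fell in DTC, and 2 rose and 4 fell in DTEC (2 and 2 in DTEC with total counts alone). CDKN1A (p21) was higher in DTC and lower in DTEC, with log2 changes of 2.60 and -0.75 (edgeR adjusted p = 2.71e-10 and 8.61e-05). TP53INP1 (6.54 and 5.7) and BBC3 (2.16 and 2.34) were higher at both times.

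In untreated KO2 cells few genes of the program were called when all 4 groups were fitted together. By edgeR 0 of the 39 genes rose and 1 fell, where 2.76% of all genes rose and 1.55% fell (4.31% called), and at 2-fold or more 0 fell, where 0.339% of all genes did. At an unadjusted p under 0.05, 3 were higher and 7 lower, and no share of all genes was counted at that threshold. DESeq2 called 0 higher and 1 lower, where it called 730 of all genes higher and 423 lower. The median was -0.12 against -0.01 over all genes. The one called gene was ASNS, with 13.9, 14.7 and 14.3 CPM in KO2, all below the untreated wild-type cultures (67.3% of their level, log2 -0.57 ± 0.131 SE, edgeR adjusted p = 0.0241). That call was lost without any 1 of the 6 libraries, and over all alternatives the adjusted p ran from 0.000663 to 0.106. ASNS thus fell in KO2 and rose in both erlotinib groups. Of the 13 synthetases 0 passed in KO2 by edgeR or by DESeq2 and 3 were lower at an unadjusted p under 0.05, while 12 of them had negative differences and 11 lay wholly below the wild-type cultures, as did 19.9% of all tested genes (35.7% had no overlap in either direction). YARS1 had 185, 187 and 190 CPM in KO2, each below the lowest wild-type value (log2 -0.31, edgeR adjusted p = 0.123). When KO2 and untreated cells were fitted alone, more passed: 2656 of all genes, 1397 higher and 1259 lower, and 12 of the 39, 2 higher and 10 lower. Of the calls in that fit, 52.6% were higher over all genes and 16.7% among the genes studied here. The count in KO2 thus depends on which groups share the estimate of spread.

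The DTEC cultures differed from each other in the level of these genes. Of the 27 genes higher in DTEC, 22 (81.5%) were highest in the culture labelled replicate 1 and lowest in replicate 3, as were 1578 of the 4449 genes (35.5%) that were higher in DTEC overall. SESN2 (59 against 28.6 CPM), PSAT1 (529 against 321) and ASNS (276 against 186) are examples. PHGDH did not, with its highest value, 637 CPM, in replicate 3. In DTC 11 of the 13 synthetases (84.6%) were highest in replicate 1, the culture that stood apart, compared with 41.9% of all tested genes. Without DTC replicate 1, as without each other library in turn, between 24 and 31 of the 39 genes were called in DTC. Leaving out DTC replicate 1 lost the DTC call of ATF4 and added those of GARS1 (-0.383, edgeR adjusted p = 0.0165) and SARS1 (0.26, 0.0178). Between DTEC and DTC it added calls for NUPR1 (-0.829, edgeR adjusted p = 0.00816), STC2 (0.23, 0.0338), GDF15 (-0.731, 0.0141) and ALDH18A1 (0.393, 0.00118).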

How the data were processed

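RNA-seq of 12 PC9 cultures was analysed from 1 table of expected counts per gene deposited by the authors. The submitters' processing notes name RSEM 1.3.1, Bowtie2 2.5.2, DESeq2 1.40.2 and GRCh38; their roles and the annotation release are not given in the sources used here. Libraries were polyA-selected and stranded, per the labels' protocols. Expected counts were rounded. Of the 40 genes, 25 had whole values (within 0.005) in all 12 libraries and 4 in none; 19 overlap a gene on the opposite strand in GENCODE 29, and reads shared between overlapping genes cannot be told apart here.

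Genes were filtered with filterByExpr and scaled by TMM, and all 4 groups were fitted in one edgeR 4.0.16 quasi-likelihood model (R 4.3.3). P-values were adjusted by Benjamini-Hochberg over 17115 genes, with a threshold of 0.05; the fit was tested on simulated data. The genes and lists were chosen with earlier results of these data known. The value of every wild-type library is given for ATF4, DDIT3, WARS1 and the 2 genes with the largest called change per role and comparison, and context lists are named by their largest called changes; ATF5, LARS1, HSPA5 and other genes named beside these were chosen after their values were seen.

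Depth, 25572691 to 38373679 counts, gives a floor of 3 counts per library. No 2 replicates agreed within sampling noise. The labels put all libraries in 1 batch and do not say that replicate numbers pair the cultures; deviations of same-numbered cultures correlated at -0.03 to 0.179, above 0.1 in 4 of 18 pairs, so no block was used. Alternatives were RLE, total-count and upper-quartile scaling, no filter, 2 groups alone, DESeq2 1.42.0, a replicate block and leaving out each library.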

Additional observations from a re-analysis of the deposited data

Results flagged for a closer look

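Between 7 and 28 days of erlotinib, the change against untreated cells differed for 30 of the 39 genes tested, by the DTEC to DTC contrast of the edgeR quasi-likelihood model (adjusted p under 0.05); 28.8% of all genes were higher and 26.6% lower in that contrast. On the log2 scale, DTEC minus DTC, the 28 genes that were higher were ATF4 (1.07), CEBPB (1.305), CEBPG (0.69), TRIB3 (1.90), DDIT4 (1.54), SESN2 (1.68), PHGDH (2.12), PSAT1 (1.77), SHMT2 (1.28), MTHFD2 (0.85), ASNS (1.67), PYCR1 (0.57), SLC7A1 (1.12), SLC1A5 (1.48), SLC38A2 (1.00), AARS1 (0.92), CARS1 (0.81), EPRS1 (1.15), GARS1 (1.07), IARS1 (0.97), LARS1 (0.33), MARS1 (0.94), NARS1 (0.60), SARS1 (0.68), TARS1 (0.69), VARS1 (0.47), WARS1 (0.68) and YARS1 (1.19). The 2 that were lower were ATF5 (-0.998) and DDIT3 (-0.61).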

How the results depend on the processing

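Called genes of the program kept their direction in every alternative except ATF4 in DTC, which changed sign with total counts (0.0151). Of the alternatives to each called value, 44 lost the call in DTC, 14 in DTEC, 11 between DTEC and DTC and 6 in KO2. Differences that were not called changed sign in at least 1 alternative for 4 of 10 genes in DTC, 3 of 8 in DTEC, 6 of 9 between DTEC and DTC and 9 of 38 in KO2. Those with a value in the text were ATF5 in DTC (0.212 with total counts, 0.147 with upper quartile), GARS1 in DTC (0.104 and 0.0335), SLC7A5 in DTC (0.109 and 0.0426) and in DTEC (0.022 with total counts), CEBPB in DTEC (0.0862, 0.0333, and -0.136 to 0.0341 with 1 library left out) and, between DTEC and DTC, CHAC1 (-0.00953 with total counts) and STC2 (-0.12, -0.105, and -0.08 to 0.23 with 1 library left out). In KO2 the 738 genes called became 1147 without a filter, 2656 with 2 groups alone, 1153 with DESeq2 and 321 to 426 with 1 library left out, and the 1 called gene of the program became 2, 12, 1 and, without any 1 library, 0. The synthetases' share of counts became 0.317% in untreated cells and 0.28% in KO2 on the TMM scale. Leaving out 1 library gave 24 to 31 called genes in DTC, 28 to 32 in DTEC and 28 to 34 between them. With the replicate number as a block, which the labels do not say pairs the cultures, 30, 31 and 31 were called and 1 in KO2 (887 genes overall). The cause of these changes was not tested. Depth limits FGF21 and the untreated level of NUPR1.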
